A study of Mus musculus with 7 samples.

Results

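Of 7 RNA sequencing libraries from eyes of Agbl5 mutant mice and their controls, 2 carried abundant lens messages. They were picked by a single value, a level of at least 100 FPKM of Cryaa, the gene of alpha A crystallin. FPKM counts fragments scaled by the length of the gene model and by the size of the library. The 2 lens-rich libraries were heterozygous 1 and knockout 1, and the other 5 were heterozygous 2, knockout 2, knockout 3, wildtype 1 and wildtype 2. Agbl5 encodes CCP5, an enzyme that removes glutamate from tubulin tails, and the study asked what its loss does in photoreceptors. The labels gave the tissue as eyeball and the genotype as knockout, heterozygous or wildtype, while the extraction protocol named retinal tissue. The strain, the Agbl5 allele, the age and whether replicates came from separate mice are not given in the sources used here, so any spread between replicates may be partly technical.

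The lens is a body of 2 cell forms. A sheet of epithelial cells under the front capsule divides and keeps the capsule supplied with basement membrane, and fibre cells behind it fill with crystallins, build gap junctions and water channels into their membranes, and then lose their nuclei. Alpha crystallins are small heat shock proteins that act as chaperones, and beta and gamma crystallins are the packed proteins that give the lens its refractive power. A retina dissected free of the lens should hold little of any of these messages.

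Recovered reads ran from 12244707 to 14339701 per library. Agbl5 itself (GRCm38 chr5:30888694-30906965, 16 exons) was at 1.53, 1.73 and 1.27 FPKM in knockouts 1 to 3, 4.21 and 5.35 in heterozygous 1 and 2, and 9.89 and 8.57 in wildtype 1 and 2, so both lens-rich libraries matched their genotype labels. Xist stood at 158 and 181 FPKM in knockout 3 and wildtype 2 and at no more than 0.0381 in the other 5, so the lens-rich libraries shared their sex with heterozygous 2 and knockout 2 but not with knockout 3. Rhodopsin and the other retinal messages were plentiful in all 7 libraries.

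The lens-rich libraries were compared within their genotype, heterozygous 1 with heterozygous 2, and knockout 1 with whichever of knockout 2 and 3 was nearer. Differences are on the log2(FPKM + 1) scale, which understates folds at low levels, and one past 1 was counted. The 2 contrasts share no library. Since the Cryaa level chose the libraries and single libraries are compared, everything on these contrasts is a description with no test. Genes were compared where they averaged 1 FPKM or more across all libraries, 15472 in all.

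The promoters of the crystallin genes are shown first, since these genes make up most of the lens signal and the gamma crystallins split the 2 lens-rich libraries. The 100 bases before the RefSeq start of 5 of the 6 gamma A to F genes on chromosome 1 (build GRCm38.p6) follow. Capitals mark TATATA, the core of a TATA box, and CTTTTGTG, a run that 4 of these 5 hold and Crygb does not.
Cryga: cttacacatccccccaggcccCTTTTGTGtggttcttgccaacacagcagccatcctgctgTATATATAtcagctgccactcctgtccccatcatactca
Crygb: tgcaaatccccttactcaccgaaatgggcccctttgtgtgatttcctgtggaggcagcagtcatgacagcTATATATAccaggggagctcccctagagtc
Crygd: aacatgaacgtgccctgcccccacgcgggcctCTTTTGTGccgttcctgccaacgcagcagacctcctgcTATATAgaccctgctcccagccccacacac
Cryge: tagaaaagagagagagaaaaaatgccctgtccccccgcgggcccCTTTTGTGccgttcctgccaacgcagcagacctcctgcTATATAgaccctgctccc
Crygf: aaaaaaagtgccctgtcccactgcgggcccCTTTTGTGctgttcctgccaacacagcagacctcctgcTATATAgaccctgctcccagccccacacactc
These lie at chr1:65103364-65103463 for Cryga, chr1:65082291-65082390 for Crygb, chr1:65063441-65063540 for Crygd and chr1:65051164-65051263 for Cryge, all on the minus strand, and at chr1:65926422-65926521 on the plus strand for Crygf. Searched on both strands of the 250 bases before the start, TATATA was in 7 of the 8 gamma promoters and in 6.187% of 27025 promoters, and CTTTTGTG was in 5 of 8 and in 1.402%. The motifs were chosen after the sequences had been seen.

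Some crystallin promoters carry another run, TGCTGAC, which is the half-site of the Maf recognition element, Maf being a factor that drives crystallin genes in fibre cells. It was in 5 of 15 crystallin promoters found, those of Cryaa, Cryba1, Cryba4, Crybb1 and Cryga, and in 4.315% of all promoters. The 150 bases before the start of 3 beta crystallin genes are shown with it in capitals.
Cryba1: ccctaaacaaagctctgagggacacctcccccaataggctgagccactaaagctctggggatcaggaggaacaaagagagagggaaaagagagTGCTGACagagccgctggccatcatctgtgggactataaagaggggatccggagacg
Crybb1: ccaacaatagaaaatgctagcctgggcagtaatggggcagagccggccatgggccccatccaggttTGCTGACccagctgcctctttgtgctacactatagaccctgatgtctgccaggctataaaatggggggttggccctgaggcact
Cryba4: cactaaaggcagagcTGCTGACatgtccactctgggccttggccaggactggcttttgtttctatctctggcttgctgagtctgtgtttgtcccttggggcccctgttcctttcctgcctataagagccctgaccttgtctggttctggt
Cryba1 is read from chr11:77725294-77725443 on the minus strand, Crybb1 from chr5:112255670-112255819 on the plus strand and Cryba4 from chr5:112252519-112252668 on the minus strand. Of the 84 genes described below as higher in both lens-rich libraries, 52 had a promoter in the RefSeq table, and 6 of these held TGCTGAC, the others being Igfbp7 and Phgdh beside 4 crystallins. A match describes letters and is not a binding site.

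The alpha crystallins were the most abundant lens messages. Cryaa (chr17:31677807-31681733, plus strand, 4 exons) was at 1733 FPKM in heterozygous 1 and 2541 in knockout 1, against 5.99 in heterozygous 2, 1.11 in knockout 2, 6.29 in knockout 3, 12.3 in wildtype 1 and 4.15 in wildtype 2. This is the value that chose the libraries, and the gap between 12.3 and 1733 holds no library. Cryab, the other alpha crystallin, which is also made outside the lens, was at 976 and 1196 FPKM in the lens-rich libraries and at 17.6 to 23.9 in the rest. Its floor in the other 5 libraries was higher than that of Cryaa and of the beta and gamma crystallins. Hspb2 overlaps 17% of the Cryab gene model on the opposite strand, and AC090881.2 overlaps 13.2% of that of Cryaa, so these pairs share some reads.

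All 6 beta crystallins were higher in both lens-rich libraries, a direction taken by 84 of the 15472 genes compared, or 0.543%. Cryba1 (chr11:77718615-77725283, minus strand, 6 exons) was at 481 FPKM in heterozygous 1 and 948 in knockout 1. It was at 1.44 in heterozygous 2, 0.578 in knockout 2, 2.84 in knockout 3, 6.78 in wildtype 1 and 1.08 in wildtype 2. In recovered reads that was 10822 against 30 within the heterozygous pair, a ratio of 333 after scaling for library size, with a 95% exact counting interval of 233 to 494. Against knockout 3, knockout 1 was 333 times higher as well, with an interval of 260 to 435. Such intervals cover counting error only, not the spread between mice. Crybb2 was at 397 and 759 FPKM, Cryba2 at 245 and 499, Crybb1 at 202 and 417, Cryba4 at 168 and 493, and Crybb3 at 128 and 266, none above 6.02 FPKM in any of the other 5 libraries.

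Of the 8 gamma crystallins, 7 were higher in both lens-rich libraries. Crygs (chr16:22805203-22811577, minus strand, 3 exons), made in fibres throughout life, was at 495 FPKM in heterozygous 1 and 928 in knockout 1. It was at 2.10 in heterozygous 2, 0.405 in knockout 2, 3.34 in knockout 3, 6.25 in wildtype 1 and 1.89 in wildtype 2. Crygb, Crygc and Crygd stood between 99.1 and 180 FPKM in both lens-rich libraries and at 7.22 or less elsewhere. Crygn, the member between the beta and gamma families, was at 16.5 and 30.9 FPKM against at most 0.579. Cryga was the exception, at 10.6 FPKM in heterozygous 1, 0.414 in knockout 1 and 0 in the other 5, so its difference within the knockouts, 0.50, stayed under the threshold of 1.

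Crystallins as a group, the 15 of 16 with recovered reads, took 0.506% of the reads of heterozygous 1 (95% Wilson interval 0.502 to 0.510%) and 0.844% of those of knockout 1 (0.839 to 0.849%). In the other 5 libraries the share ran from 0.00407% in knockout 2 to 0.0102% in wildtype 1. Cryaa, with no reads recovered, is not in these shares. A larger lens piece and more crystallin RNA per lens cell cannot be told apart in such bulk libraries.

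**Figure D1:**
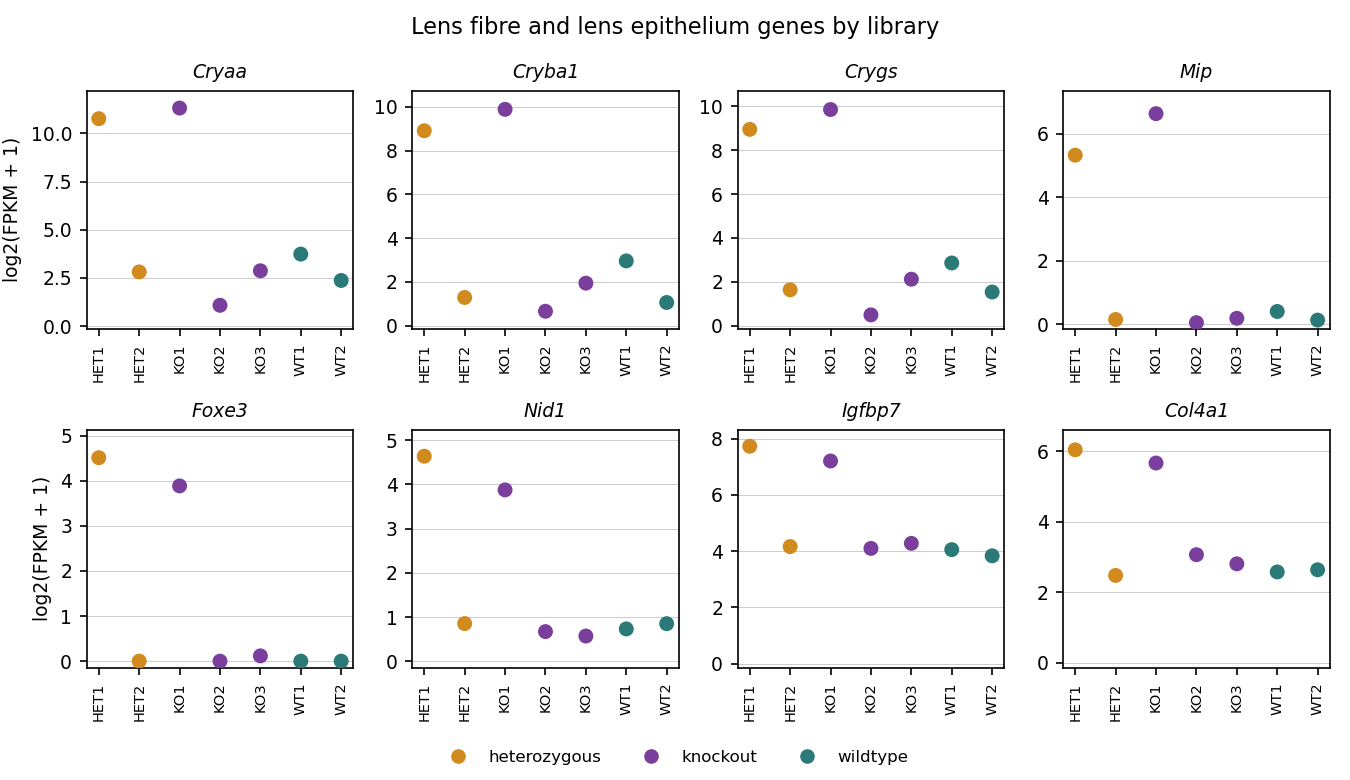
Level of 4 lens fibre genes (top row) and 4 genes of the lens epithelium and its basement membrane (bottom row) in each of the 7 libraries, as log2(FPKM + 1), 1 point per library, coloured by genotype; vertical scales differ between panels. Heterozygous 1 and knockout 1 stand above the other 5 libraries in all 8 panels.

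The membrane proteins of lens fibres followed, in 6 of 14 list members compared. Mip (chr10:128225838-128231812, plus strand, 4 exons), the water channel of fibre membranes, was at 39.0 FPKM in heterozygous 1 and 98.1 in knockout 1, against 0.107 in heterozygous 2, 0.0331 in knockout 2, 0.136 in knockout 3, 0.319 in wildtype 1 and 0.0928 in wildtype 2. Gja3, which encodes the gap junction protein connexin 46, was at 10.3 and 9.87 FPKM against 0 to 0.0494. Gja3 thus had almost no reads outside the lens-rich libraries, with 432 and 387 in them and at most 2 in heterozygous 2, knockout 2 and knockout 3.

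Lim2, a fibre membrane protein, was at 9.33 and 18.3 FPKM against 0 to 0.438, and Grifin, a galectin-like lens protein, at 24.4 and 46.4 against 0 to 0.558. Lgsn, the lens glutamine synthetase-like protein, was at 7.46 FPKM in heterozygous 1 and 1.48 in knockout 1, beside 0.741 in wildtype 1 and at most 0.198 in the other 4. The remaining 8 members, such as Ank2, Sptbn1, Cdh2 and Nrcam, are made by retinal neurons as well and did not pass the threshold in either genotype. The 6 were compared only because of their level in the lens-rich libraries, and of the 6 members that pass the filter on the other 5 libraries alone none was higher in both. Gm26847, a noncoding gene at 4.20 and 8.71 FPKM, overlaps Mip on the opposite strand over 58% of its model. The libraries do not mark the strand, so its reads and those of Mip cannot be separated.

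Both beaded filament genes of the fibre cytoskeleton were higher. Bfsp1 (filensin) was at 8.62 FPKM in heterozygous 1 and 11.2 in knockout 1 against 0.237 to 0.687, and Bfsp2 (phakinin) at 16.7 and 21.9 against 0.322 to 1.01. With Cryge they made up the 3 of 13 members higher in both. All 3 entered the comparison only through the lens-rich libraries, and of the 10 members that pass the filter on the other 5 alone none was higher in both. Vim, an intermediate filament gene of lens and Mueller glia alike, was at 73.9 and 80.7 FPKM against 30.9 to 46.2, with differences of 1.08 and 0.79. Dnase2b, the nuclease that clears fibre nuclei, had 1 read in heterozygous 1 and 0 in knockout 1.

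Of the lens transcription factors, Foxe3 and Pitx3 were higher in both. Foxe3 (chr4:114925147-114926013, minus strand, 1 exon), which keeps lens epithelial cells dividing, was at 21.8 FPKM in heterozygous 1 and 13.8 in knockout 1, at 0.0843 in knockout 3 and at 0 in the other 4. Pitx3, a lens and midbrain factor, was at 4.96 and 4.71 FPKM, with 107 and 95 reads against a single read in all other libraries together. Against a floor of 3 reads per library, Foxe3 was at least 82.2-fold higher in heterozygous 1 than in heterozygous 2, and Pitx3 at least 33.0-fold. Sox1, at 0.864 and 1.03 FPKM and at no more than 0.0137 elsewhere, was too low on average to enter the comparison. Maf was at 4.99 and 4.56 FPKM against 1.82 to 2.64, with differences of 1.07 and 0.61. Pax6, Prox1, Six3, Meis1 and Meis2, which retinal neurons express, did not pass the threshold. The 2 of 13 factors higher in both were compared only because of their level in the lens-rich libraries, and of the 11 that pass the filter on the other 5 alone none was.

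The lens epithelium and capsule list had 7 of 13 members higher in both. Igfbp7, a secreted growth factor binding protein, was at 211 FPKM in heterozygous 1 and 147 in knockout 1, against 16.9 in heterozygous 2, 16.1 in knockout 2, 18.4 in knockout 3, 15.6 in wildtype 1 and 13.3 in wildtype 2. Col4a1 and Col4a2, the chief type IV collagen chains of the capsule and of every basement membrane, were at 65.0 and 53.1 FPKM in heterozygous 1 and at 49.95 and 41.2 in knockout 1. In the other libraries Col4a1 ran from 4.57 to 7.38 and Col4a2 from 5.12 to 6.15. Col4a3, Col4a4 and Col4a6, which encode minor chains of the same collagen, were at 4.49 to 8.10 FPKM in the lens-rich libraries and at 0.889 to 2.23 in the rest. Col4a5 was at 12.4 and 10.1 against 4.22 to 5.45, with a knockout difference of 0.89. Cdh1, the epithelial cadherin, and Fgfr3, a receptor for fibroblast growth factors, were too low on average to be compared, at 1.40 to 2.78 FPKM in the lens-rich libraries and 0.0669 to 0.255 elsewhere.

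Beside the 31 genes of the lens lists, 53 genes outside them were higher in both lens-rich libraries, which is 0.343% of the genes compared. Of all 84, 70 were protein coding, 11 had models under 200 bases, and 78 stood above all 5 other libraries, where 6.86% of the genes compared did so and 6.28% stood below all 5. The filter let 34 of them in only through the lens-rich libraries, since their mean over the other 5 was under 1 FPKM. Of the genes higher in heterozygous 1 (202, or 1.31%), 41.6% were also higher in knockout 1, and of those higher in knockout 1 (140, or 0.905%), 60% were also higher in heterozygous 1. For scale, wildtype 1 and 2 differed past the same threshold in 293 genes (1.89%), and knockout 2 and 3 in 329 (2.13%).

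**Figure D2:**
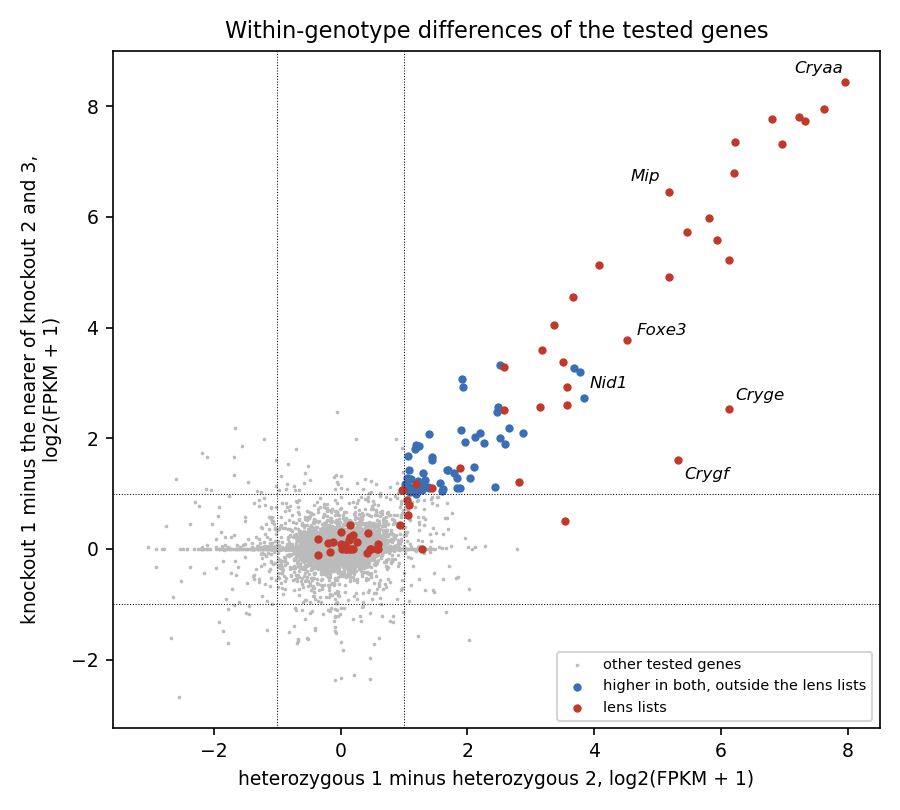
Each point is 1 of the 15472 genes compared, by its difference between heterozygous 1 and 2 (horizontal) and between knockout 1 and the nearer of knockout 2 and 3 (vertical), both on log2(FPKM + 1); dotted lines mark 1 and -1. Red marks all compared genes of the lens lists, of which 31 were higher in both. These 31 and the 53 other genes higher in both (blue) fill the upper right, with Cryge and Crygf far to the right of the diagonal.

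Outside the lens lists, and leaving out a predicted pseudogene, Nid1 had the largest smaller difference of the 2 contrasts. Nid1 (chr13:13437551-13512269, plus strand, 20 exons), whose product nidogen links laminin to type IV collagen, was at 23.9 FPKM in heterozygous 1 and 13.7 in knockout 1. It was at 0.806 in heterozygous 2, 0.592 in knockout 2, 0.484 in knockout 3, 0.660 in wildtype 1 and 0.802 in wildtype 2. The read ratio was 29.6 within the heterozygotes (interval 23.5 to 37.9) and 23.1 against knockout 2 (17.7 to 30.6). Hspg2, which encodes the basement membrane proteoglycan perlecan, was at 10.4 and 8.19 FPKM against 0.742 to 1.30. Htra3, a secreted serine protease, was at 8.66 and 6.22 against 0.311 to 0.893. Tinagl1, a basement membrane glycoprotein, was at 2.55 and 2.19 against 0.390 to 0.612. Lama1, the laminin chain on the epithelium list, was not past the threshold, at 2.28 and 2.16 FPKM against 1.66 to 2.002.

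Genes of signalling and surface proteins were also among the 53. Wnt7b, a Wnt ligand, was at 4.83 FPKM in heterozygous 1 and 5.26 in knockout 1 and at no more than 0.0597 in any other library, or 334 and 341 reads against 0 to 4. Sfrp1, a secreted Wnt antagonist, was at 14.7 FPKM in both lens-rich libraries and at 1.47 to 2.68 in the rest. Cd24a, a surface glycoprotein of immature and epithelial cells, was at 32.7 and 52.1 against 3.42 to 4.90. R3hdml, a secreted protein of little known function, was at 30.2 and 19.4 against 0.909 to 2.07. Crim1, a transmembrane regulator of growth factors, was at 27.9 and 23.1 against 8.45 to 10.4. For each of these the lens-rich libraries stood above the other 5, as for 78 of the 84 genes, which the way they were picked partly set.

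Enzymes and genes of other roles were among the 53 as well. Phgdh, the first enzyme of serine synthesis, was at 15.6 FPKM in heterozygous 1 and 11.95 in knockout 1 against 1.87 to 3.33. Srd5a2, a steroid reductase, was at 6.18 and 5.65 against 0 to 0.456. Pygl, a glycogen phosphorylase, was at 6.95 and 6.51 against 2.02 to 2.71, and Fabp5, a fatty acid carrier, at 12.9 and 24.2 against 3.73 to 5.21. Nupr1, a stress-induced nuclear protein, was at 15.2 and 21.8 against 1.28 to 3.10, and Anxa1, a membrane-binding annexin, at 34.6 and 23.3 against 4.51 to 6.43. The ranges did not overlap for any of the 6. That held for 78 of the 84 genes higher in both and 6.86% of all genes compared, and the way the 84 were picked partly set it. Near the threshold, Myl9 and Ppl were just inside, with smaller differences of 1.02 each, while Wls, Dct, Islr, Rbm24 and Mlana were just outside, at 0.96 to 0.99.

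Pigment and smooth muscle genes were also higher, but not only in the lens-rich libraries. Pmel, the fibril protein of pigment granules, was at 73.9 FPKM in heterozygous 1 and 70.9 in knockout 1, at 32.2 in heterozygous 2, 3.62 in knockout 2, 19.5 in knockout 3, 4.83 in wildtype 1 and 47.1 in wildtype 2. Tyrp1, a melanin enzyme, was at 39.6 and 27.2 FPKM, and next came wildtype 2 at 18.9. Acta2, smooth muscle actin, was at 29.6 and 18.1, with wildtype 2 at 12.6 and heterozygous 2 at 7.10 but knockout 2, knockout 3 and wildtype 1 at 1.19 to 1.27. Myh11, smooth muscle myosin, was at 6.68 and 4.70, with wildtype 2 at 4.30, and Dcn, the matrix proteoglycan decorin, at 3.73 and 1.90, with wildtype 2 at 1.77. Wildtype 2 came next after the lens-rich pair for all 5 genes, yet its Cryaa level was 4.15 FPKM.

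Within the pigment list Pmel and Tyrp1 were 2 of 13 members higher in both. Rpe65, Lrat and Rgr, which mark the retinal pigment epithelium, were highest in knockout 1 and knockout 3, with Rpe65 at 12.8 and 12.9 FPKM there and at 3.75 to 8.20 in the other 5. Best1, a channel of the same epithelium, was too low to be compared and differed from them, at 0.667 FPKM in knockout 1 and 0.340 in knockout 3. Summed over the list, the lens-rich libraries were at 366 and 396 FPKM and the other 5 at 167 to 280. The part of pigmented tissue in the lens-rich libraries' differences was not tested.

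**Figure D3:**
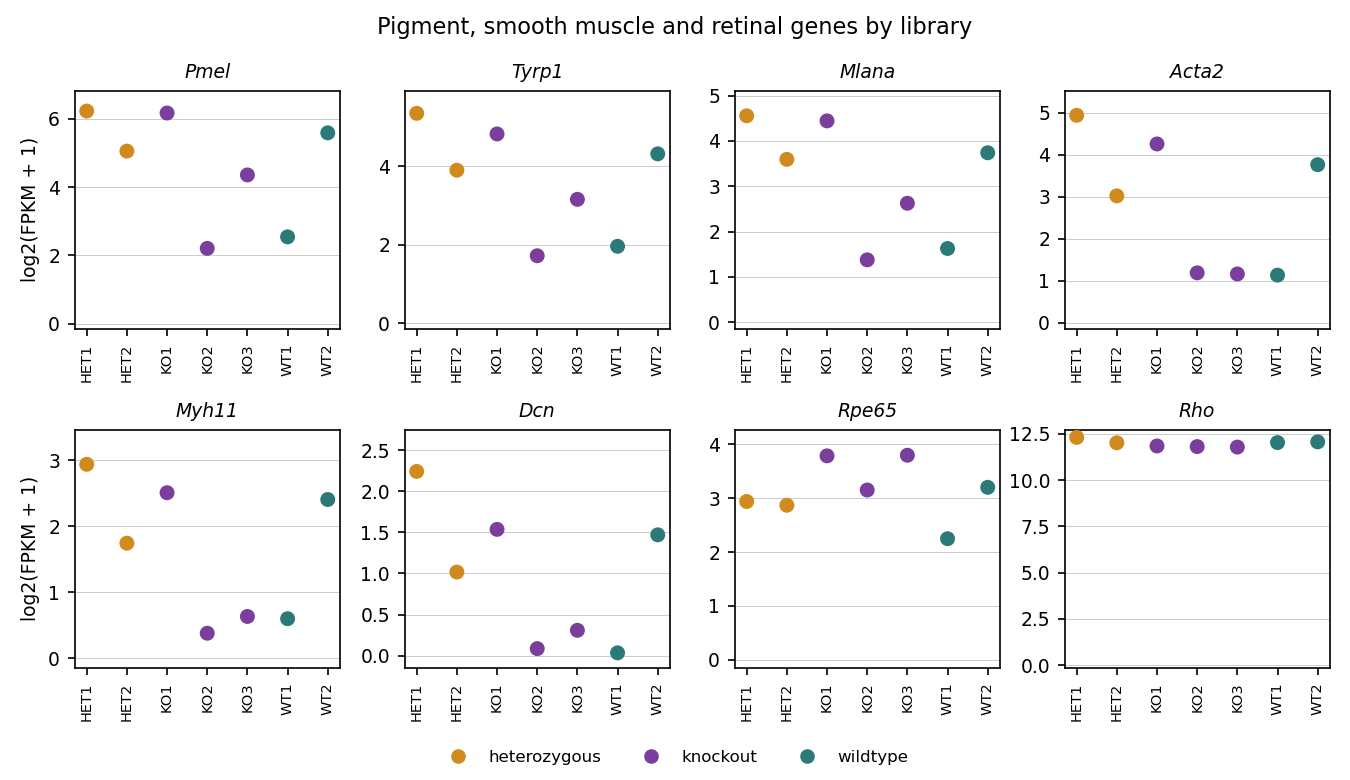
Level of 3 melanin genes, 3 smooth muscle and matrix genes, Rpe65 of the retinal pigment epithelium and rhodopsin in each library, as log2(FPKM + 1), 1 point per library, coloured by genotype; vertical scales differ between panels. Wildtype 2 lies near heterozygous 1 and knockout 1 for Pmel, Acta2, Myh11 and Dcn, and rhodopsin is level across the 7 libraries.

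The lists of other eye tissues had 0 to 2 members each higher in both, where 0.543% of all genes compared were. Of 12 cornea and conjunctiva genes measured, 2 were high enough to compare and only Aldh3a1, a corneal enzyme, was higher in both, at 3.75 FPKM in heterozygous 1 and 3.04 in knockout 1 against 0.151 to 0.750. Krt12, the keratin that defines corneal epithelium, was at 0.268 and 0.653 against 0.197 to 0.701, and Kera, the corneal stromal proteoglycan, was at 0 in both lens-rich libraries. Summed, the list reached 7.56 and 7.22 FPKM against 1.54 to 2.55. Perp, a desmosome protein and the other gene compared, was at 3.81 and 4.18 FPKM against 1.27 to 2.14, with a difference of 0.78 in the heterozygotes and 1.12 in the knockouts. In the iris and ciliary body list Tyrp1 alone was higher in both, of 13, and in the sclera, choroid and fibroblast list Dcn alone, of 8. Of the vascular list, the 2 smooth muscle genes Acta2 and Myh11 were higher in both, while the endothelial genes Kdr, Flt1 and Pecam1 were not. No skeletal muscle gene was, out of 2 compared.

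No member of the rod, cone, bipolar, amacrine, ganglion cell, Mueller glia or microglia lists was higher or lower in both. Since 0.543% of all genes were higher in both and 0.0711% lower, a count of 0 in lists of this size is near that background. Median differences over the 21 rod genes were -0.06 in the heterozygotes and -0.01 and 0.04 in the knockouts, beside medians of -0.00, -0.01 and 0.00 over all 15472 genes. Genes named crystallin for other reasons, such as Crym, a thyroid hormone binding protein, and Cryz, a quinone reductase, gave 0 of 6. The gliosis genes Edn2, Stat3 and Serpina3n were high in all 3 knockouts and not in heterozygous 1. Edn2, for instance, was at 60.1, 55.9 and 50.9 FPKM in the knockouts and 3.10 in heterozygous 1. S100a6, a calcium-binding protein on the same list, was highest in the lens-rich libraries instead, at 8.08 and 15.9 FPKM against 3.15 to 7.26, with differences of 0.48 and 1.04.

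**Figure D4:**
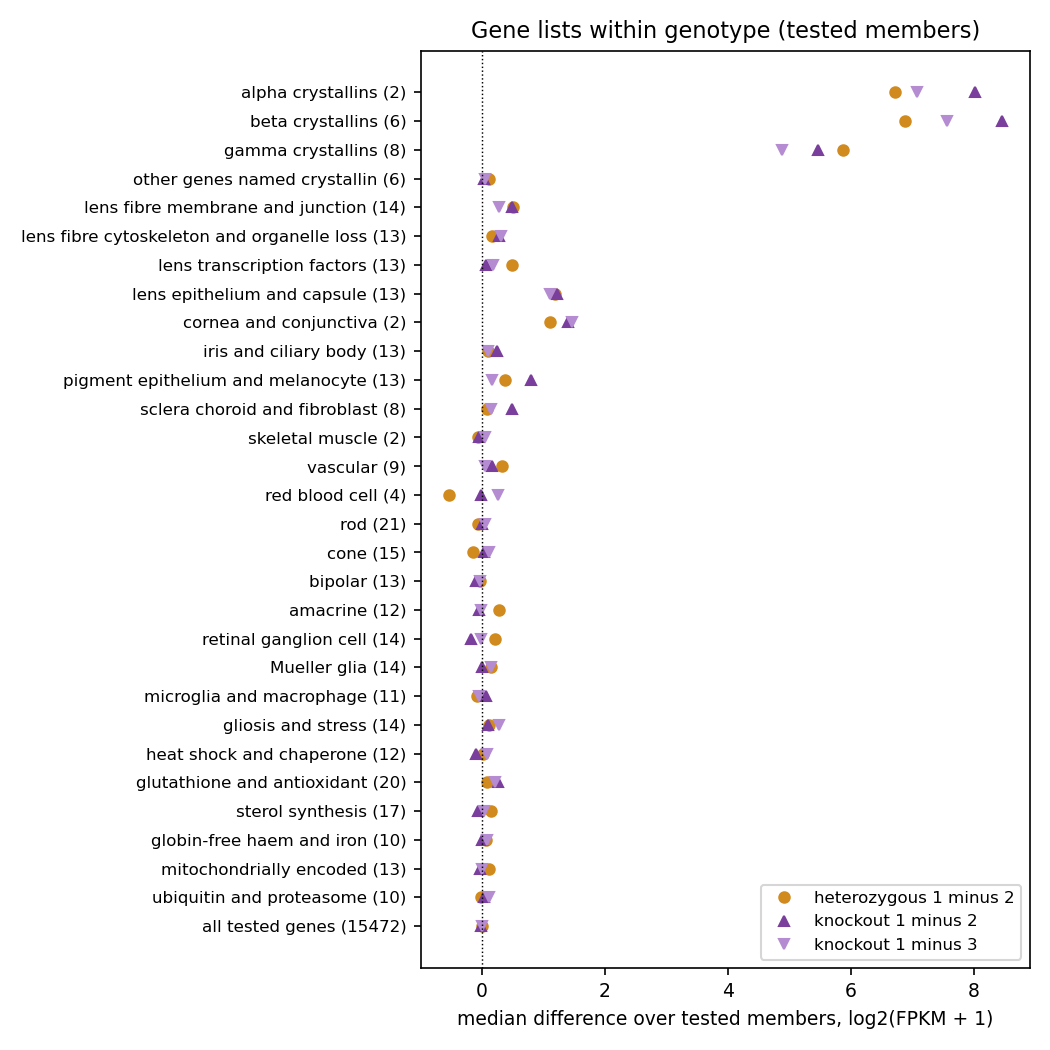
Median difference of each gene list on log2(FPKM + 1), for heterozygous 1 minus 2 and knockout 1 minus 2 and minus 3, with the number of members compared in brackets. The 3 crystallin lists lie between 4.88 and 8.46, and the epithelium and capsule list between 1.11 and 1.22. The cornea and conjunctiva list, of 2 genes, lies between 1.11 and 1.46, and the retinal lists lie near 0.

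Few genes were lower in both at the main settings. Other settings gave from 0 (a pseudocount of 10) to 81 (a scale without lens, mitochondrial and short models), and the gene types of those were not examined. That scale raises all values while the pseudocount and the filter stay at 1, so it lets in genes of lower level. The 248 genes lower in heterozygous 1 (1.6%) and the 65 lower in knockout 1 (0.42%) had 11 in common, 0.0711% of those compared, and none was protein coding. Of these, 10 had models under 200 bases. Mir384, a brain and retina microRNA gene, had the most reads of the named ones, 4 in each lens-rich library against 12 in heterozygous 2 and 10 and 12 in knockouts 2 and 3. Mir6938 and Mir6920 had no read in the lens-rich libraries and 2 to 5 in their genotype mates. A further 18 genes (0.116%) went opposite ways, 3 of them protein coding. Poly-A selected libraries measure such short models poorly, and these counts differ by a handful of reads.

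The 2 lens-rich libraries did not hold the same mixture of lens messages. Beta crystallins were 1.91 to 2.92 times higher in knockout 1 than in heterozygous 1, with Crybb2 lowest and Cryba4 highest, and Crygs (1.88 times), Mip (2.51), Lim2 (1.97) and Grifin (1.90) shifted likewise. Of the 13 epithelium and capsule genes compared, 10 were lower in knockout 1 than in heterozygous 1, and Adamtsl4, Col4a6 and Slc38a3 were higher, at 4.86, 4.51 and 161 FPKM against 4.13, 4.49 and 133. Foxe3 in knockout 1 was 0.632 of its level in heterozygous 1 (interval 0.516 to 0.772), Nid1 0.573 (0.534 to 0.614), Igfbp7 0.694 (0.658 to 0.731) and Col4a1 0.768 (0.740 to 0.797). Gja3 (0.957, interval 0.832 to 1.10) and Pitx3 (0.948, 0.712 to 1.26) had intervals that include 1. The fibre membrane list was divided, with 6 of 14 genes higher in knockout 1 and 8 in heterozygous 1. Genotype and library cannot be told apart here, since each genotype has at most 1 lens-rich library.

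The gamma A to F crystallins parted far more. Cryge (chr1:65048554-65051149, minus strand, 2 exons) was at 106 FPKM in heterozygous 1 and 7.74 in knockout 1, or 1084 reads against 74, a 13.7-fold difference. Crygf (chr1:65926520-65928307, plus strand, 3 exons) was at 53.9 and 2.77, a 19.4-fold difference, and Cryga 25.5-fold apart. The Cryga value rests on 109 reads in heterozygous 1 against 4 in knockout 1. Its knockout 1 to heterozygous 1 ratio was 0.0392, with a wide interval of 0.0105 to 0.103. Crygb was 1.77-fold higher in heterozygous 1, Crygd was level, with a knockout 1 to heterozygous 1 ratio of 1.02 (0.959 to 1.09), and Crygc was 1.82-fold higher in knockout 1. These 6 fibre genes of chromosome 1 therefore ran from a 25.5-fold excess in one library to a 1.82-fold excess in the other. Lgsn, on the same chromosome but far from the others, was 5.03-fold higher in heterozygous 1.

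Set against Cryaa in the same library, Cryge was 6.12% in heterozygous 1 and 0.304% in knockout 1. In heterozygous 2, knockout 3 and wildtype 1, with 5, 5 and 11 Cryge reads, it was 8.84, 8.03 and 8.45% of Cryaa, and in knockout 2 and wildtype 2, with 4 and 7 reads, 35.4 and 15.5%. For Crygf the share was 3.11% in heterozygous 1, 0.109% in knockout 1, and 6.11, 3.71 and 6.20% in those 3 libraries, on 3, 2 and 7 reads. Knockout 2 was at 20.4% on 2 reads, and wildtype 2 had no Crygf read. Knockout 1 thus had the lowest share for Cryge and, among the libraries with a Crygf read, for Crygf. At the low Cryaa levels of the other 5 libraries, however, 1 read of either gene already gives a larger share than that of knockout 1. The Crygf order among libraries with a read was therefore fixed in advance, and the Cryge order needed only 1 read in each. Wildtype 2 cannot be ranked for Crygf, since at its Cryaa level of 4.15 FPKM so small a share falls below 1 read. The shares of the other 5 libraries rest on few reads. The promoter letters shown above do not separate Cryge and Crygf from Crygd, since all 3 hold both motifs. Longest reading frames of Cryge and Crygf were 98.1% identical and those of Crygd and Cryge 91.6%, and 42.2% of 50-base windows of Cryge occur in Crygf. Reads from such stretches could be assigned to either gene, so the values of Cryge, Crygf and Crygd are uncertain one by one.

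**Figure D5:**
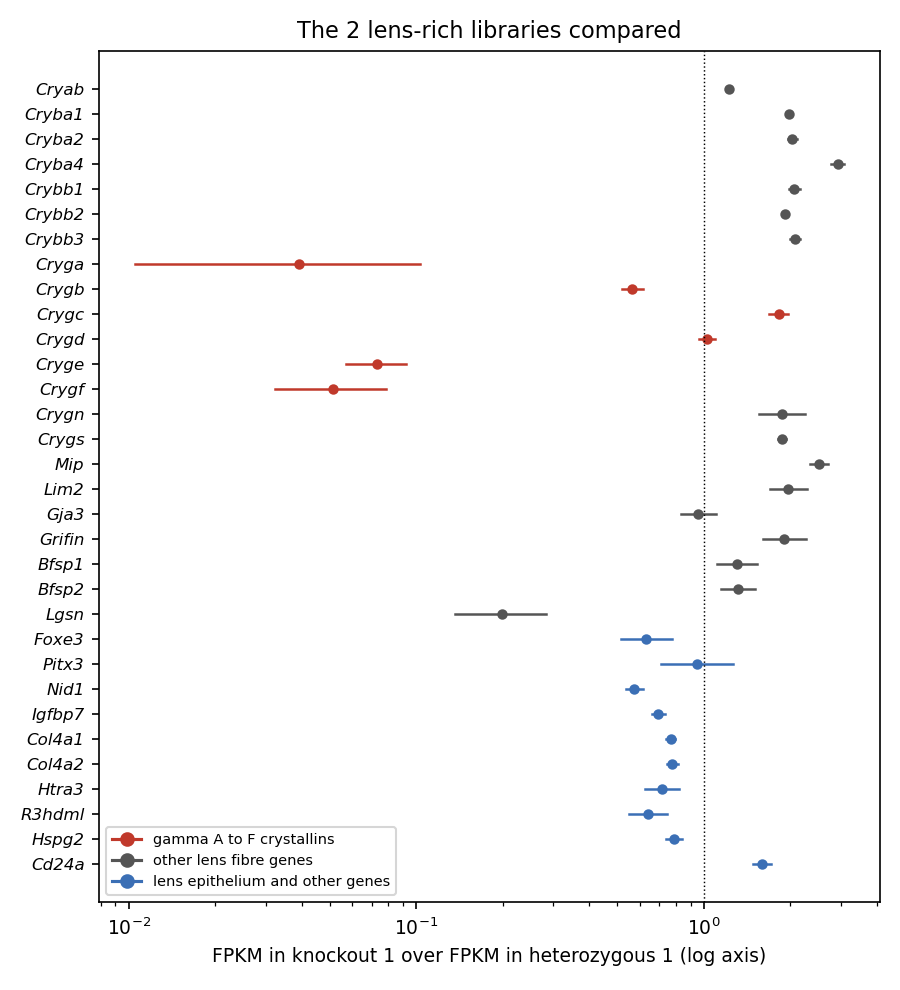
Ratio of the level in knockout 1 to that in heterozygous 1 for lens genes, on a log axis, with 95% exact counting intervals from recovered reads; the dotted line marks a ratio of 1. Beta crystallins lie near 2, epithelial and basement membrane genes between 0.573 and 0.948 apart from Cd24a at 1.59, and Cryga, Cryge and Crygf below 0.1.

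The study's own contrast, knockout against heterozygous and wildtype, has 1 lens-rich library on each side. In a limma fit over all 7 libraries, 72 of 15472 genes rose in the knockouts (0.465%) and 23 fell (0.149%) at an adjusted p of 0.05. Agbl5 fell by 1.61 ± 0.25 (SE, log2), with an adjusted p of 0.043. The call was lost when any single library other than heterozygous 1 was left out (adjusted p 0.0748 to 0.177 by limma), while the difference stayed between -1.45 and -1.70. It was also lost without both lens-rich libraries (difference -1.81, adjusted p = 0.0879 by limma) and in a fit that adds a covariate for lens level (-1.59, adjusted p = 0.0553). With no filter the adjusted p was 0.107 by limma. The call was kept without heterozygous 1 (adjusted p = 0.0199 by limma), with a pseudocount of 0.1 (0.0289) and on the TPM scale (0.0360). It was kept too with heterozygous and wildtype libraries fitted as separate groups (SE 0.11, adjusted p = 0.00228 by limma). The main fit pools these genotypes, whose Agbl5 levels differ. None of the 84 genes higher in both lens-rich libraries was called, and 1, Mir32, had an unadjusted p under 0.05. The choice of 1 high library on each side widened the error of these genes, so the lack of calls was set by that choice and does not show equal levels.

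Without both lens-rich libraries the same limma fit tested 50 of the 84 genes and again called none, with 5 at an unadjusted p under 0.05 and a smallest adjusted p of 0.333. The genes called over the whole table went from 95 to 49, with 2 fewer libraries. With the lens level as a covariate 92 genes were called, and 1 of the 84, Mir32, passed with an adjusted p of 0.0320 by limma, which was 0.180 to 0.603 in the other fits that held it. Mir32 is a microRNA gene with 2 and 5 reads in heterozygous 1 and knockout 1, 0, 1 and 2 in heterozygous 2, knockout 2 and knockout 3, and none in the wildtype libraries.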

How the data were processed

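Polyadenylated RNA of 7 libraries was sequenced with an unstranded NEBNext Ultra kit, per the labels' protocols. The authors deposited FPKM for 54532 genes. The submitters' processing notes name HTSeq, DESeq, Bowtie2 2.0.6 and TopHat2 2.0.9 and the builds GRCm38 and mm10, with no order or settings. Exon lengths came from GENCODE M21 (54495 genes matched). With them 96.8% of values above 0 were whole reads within 0.01, and reads were recovered for 32141 genes in every library. One read on 1 kilobase is worth 0.0663 to 0.0766 FPKM. Values were taken as log2(FPKM + 1) after requiring a mean of 1 FPKM. The lens-rich contrasts are descriptive. Knockout against controls used limma 3.58.1 in R 4.3.3 (trend, empirical Bayes, Benjamini-Hochberg, 0.05), and scripts were tested on simulated data. Read ratios have exact conditional intervals and shares Wilson intervals. Named genes were the markers, all crystallins, the 25 agreeing genes outside the lens lists with the largest smaller difference in each direction, without predicted or clone names, up to 4 members of each list, and Agbl5. Other list members, genes near the threshold and the remaining agreeing genes (Tinagl1, Crim1, Mir32 and Gm26847 among them) were named after their values were seen. A member of the fibre membrane list is not reported here. The libraries, lists and tests were chosen with earlier results of these data known. Pseudocounts, filters, scales, thresholds, left-out libraries, a replicate block and a lens covariate were tried as alternatives.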

Additional observations from a re-analysis of the deposited data

Results flagged for a closer look

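Among the 4 control libraries, heterozygous and wildtype, a level was marked where 1 library's gap to its nearest neighbour exceeded Dixon's 95% critical share of the whole range. Chance marks about 1 in 20 such groups. Heterozygous 1 stood apart in this way for Cryaa (0.995 of the range), Cryba1 (0.988), Crygs (0.991) and Mip (0.994). The level of Cryaa chose the library, so these results, and those of the lens lists that follow, were set by that choice and support nothing. It also stood apart in the mean log2 level of the alpha crystallins (0.873), the fibre membrane genes (0.950), the fibre cytoskeleton genes (0.955), the lens transcription factors (0.888), the epithelium and capsule genes (0.972) and the cornea and conjunctiva genes (0.876). Heterozygous 2 was the lowest of the 4 for the retinal ganglion cell genes, with a gap of 0.890, its mean being 3.90 against 4.05 to 4.07 in the other 3. Groups of 3 knockouts are too small for this rule, so knockout 1 was not examined by it.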

How the results depend on the processing

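No difference of a named gene past the threshold changed sign in 2112 recomputed values. Of these values, 772 moved by more than the gene's standard deviation over knockouts 2 and 3, a yardstick used for the heterozygous contrast as well. Genes higher in both lens-rich libraries numbered 84 as reported, 28 with a pseudocount of 10, 50 with the filter applied to the other 5 libraries, 155 on the TPM scale, 183 on a scale without lens, mitochondrial and short models, 144 at a threshold of 0.58, 36 at a threshold of 2, and 106 to 110 without knockout 2 or 3. All 84 were among the 116 found with a pseudocount of 0.1, and 82 among those on the TPM scale. Genes lower in both numbered 11 as reported, 33 and 0 with pseudocounts of 0.1 and 10, 73 on the TPM scale, 81 on the scale without lens genes, 44 and 1 at the thresholds of 0.58 and 2, and 28 to 31 without knockout 2 or 3. With these settings in the same order, and with no filter added after the pseudocounts, heterozygous 1 was higher in 353, 34, 332, 777, 866, 567 and 52 genes and lower in 501, 7, 446, 943, 1170, 683 and 38. Knockout 1 was higher in 214, 35, 254, 352, 484, 288 and 42 genes, and in 260 to 291 without knockout 2 or 3. It was lower in 130 and 0 with the 2 pseudocounts, 339 and 356 on the 2 scales, 175 and 5 at the 2 thresholds, and 133 to 173 without knockout 2 or 3. The heterozygous contrast has 1 library on each side, so leaving one out gives no value. The TPM scale put the median difference of all genes at -0.22 and -0.13 between knockout 1 and knockouts 2 and 3. On the scale without lens genes these medians were -0.01 and -0.04. Both scales also raise all values while the pseudocount and the filter stay at 1, so genes of lower level enter. The limma fit on the TPM scale tested 20700 genes against 15472. Their larger counts are therefore not over the same genes and do not show an effect of the scaling alone. A short noncoding gene, Gm23935, held between 2.16 and 17.2% of all FPKM in a library. The heterozygous median of the cornea list reversed without a filter (-0.0811), on the TPM scale (-0.14) and on the scale without lens genes (-0.18). These 3 settings take in cornea genes of lower level beside the 2 compared at the main settings. The reversal is therefore over a different set of genes and does not show that Aldh3a1 or Perp changed sign.

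The knockout to control difference of Cryaa, a value set by the choice of libraries, was 0.17 and reversed without both lens-rich libraries (-0.997), with the lens covariate (-0.40), with a pseudocount of 0.1 (-0.0180) and on the TPM scale (-0.10). It ran from -2.94 without knockout 1 to 2.17 without knockout 2, and was also below 0 without heterozygous 2 (-0.53), wildtype 1 (-0.23) or wildtype 2 (-0.68). Genes called by limma numbered 95 as reported, 45 to 90 with 1 library left out and 49 without both lens-rich ones, and the covariate called 1 of the 84.

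With the replicate number as a block, limma called 38 genes, and the adjusted p of Agbl5 was 0.260. The labels do not tie same-numbered libraries to each other. Their deviations from the group means correlated at 0.43 for knockout 1 and heterozygous 1, at 0.09 for knockout 1 and wildtype 1, and at -0.02 to 0.27 for the others. Knockout 1 and heterozygous 1 are the lens-rich pair, so the value of 0.43 was partly set by that choice and does not speak to pairing. Depth limits the low end, since a gene of 1 kilobase at 1 FPKM holds about 13 to 15 reads. The cause of these changes was not tested.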

Other observations

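The 5 libraries that were not lens-rich still held crystallin reads. Wildtype 1 held the most, with Cryaa at 12.3 FPKM, Cryba1 at 6.78, Crygb at 7.22 and Crygs at 6.25, and knockout 2 the least, with Cryaa at 1.11 and Crygs at 0.405. In wildtype 1 Crygs was 50.8% and Cryba1 55.1% of Cryaa, against 28.6% and 27.7% in heterozygous 1 and 36.5% and 37.3% in knockout 1. Mip was 1.79 to 2.98% of Cryaa in these 5 libraries, on 1 to 10 reads, and 2.25 and 3.86% in the lens-rich ones. Messages of lens genes such as Cryaa were therefore present in all 7 libraries. Foxe3, however, was at 0 in heterozygous 2, knockout 2, wildtype 1 and wildtype 2. Whether the low crystallin levels came from lens or from other cells was not tested.

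Some lens genes were too low on average to be compared but had the same pattern. Lctl, a lens klotho-like protein, was at 2.66 FPKM in heterozygous 1 and 3.16 in knockout 1 against 0 to 0.178, and Tmem40 at 2.22 and 2.86 against 0.0342 to 0.128. Gm43247, a processed pseudogene that lies within the span of Crybb2 on the opposite strand, had 80 and 55 reads in the lens-rich libraries and 0 in the other 5. Among genes that went opposite ways in the 2 genotypes, Rn7sk was at 7.91 FPKM in heterozygous 1 and 37.7 in knockout 1, against 7.01 to 17.1 in the rest, and Ifitm1 at 0.647 and 3.80 against 0.812 to 2.94.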
